A study of Mus musculus with 5480 samples.

Results

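The genes described here are 10 of the 18072 genes in a read count table of single mesenchymal cells from the mouse distal lung: Nqo1, Hmox1, Aldh3a1, Gclc, Gclm, Slc7a11, Txnrd1 and Srxn1, which are known targets of the transcription factor NRF2, and the metallothioneins Mt1 and Mt2. They were chosen by name, and all 10 were found as rows of the table. Each cell was isolated by flow cytometry and sequenced on its own, from 10 mice, 1 female and 1 male in each of 5 groups: embryonic day 18.5 (E18.5), postnatal days 1, 7 and 21 (P1, P7, P21), all in normal air, with P7 also in hyperoxia. Hyperoxia is breathing of oxygen-enriched air. The strain, the genotype, the oxygen level and the length of exposure were not given in the sources used here. Each mouse contributed 311 to 633 cells and 294154721 to 671766116 reads, with a median of 774305 reads per cell. No molecular identifiers are named, so values count reads and not molecules.

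The table held 5480 cells in 16 subtypes named by the submitters. The collagen gene Col1a2, a mesenchymal marker, had a read in 94.7% to 100% of the cells of each mouse. In CPM (the usual scaling of counts by the total reads of a library), 5 mesenchymal markers summed to 5881 to 22590 per mouse, 8 epithelial markers to 36.7 to 103 and 8 immune markers to 12.8 to 51.2. The surfactant gene Sftpc was at 8.34 to 73.6 CPM and the macrophage gene Cd68 at 1.72 to 10.9 CPM, while Epcam (epithelial) and Ptprc (immune) reached at most 1.01 and 0.904 CPM. By the sort names, 71 cells came from a CD31 or CD45 sort and not from the mesenchymal sort. Hyperoxia and sequencing run cannot be told apart, except in 1 run with 14 male cells from normal air and 9 from hyperoxia at P7. All of these came from a CD31 sort. E18.5 and P1 were sequenced mainly in the same run in each sex, and later ages shared their main run in males only. In females, 2 P7 cells lay in the P21 run, and another run held 18 E18.5, 4 P1 and 6 P21 cells. With 1 mouse per sex and group, p-values measure the spread between these mice. All levels below are CPM of reads summed over the cells of a mouse, where fewer expressing cells and less RNA per cell cannot be told apart.

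NRF2, encoded by Nfe2l2, is held at a low level by KEAP1, which marks it for degradation. Oxidants and electrophiles modify KEAP1, and NRF2 then accumulates and activates genes that carry antioxidant response elements, among them enzymes of glutathione synthesis, the thioredoxin system, haem breakdown and quinone detoxification. Metallothioneins are small cysteine-rich proteins that bind zinc and copper. Their genes are known to respond to the zinc sensor MTF1, to glucocorticoids and to oxidative stress. In the neonatal lung, hyperoxia is a widely used model of oxidant injury.

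The promoters of Srxn1, Mt2 and Mt1 are shown because changes described below concern these genes. In GENCODE M21 (GRCm38), Srxn1 spans bases 152105516 to 152111376 of chromosome 2, Mt2 bases 94172664 to 94173568 and Mt1 bases 94179082 to 94180327 of chromosome 8, all on the plus strand and protein-coding. RefSeq (GRCm38.p6) gave a promoter sequence for 7 of the 10 genes, and the 250 bases before each start are printed 5′ to 3′ on the plus strand. Capitals mark matches, on either strand, to 4 searched motifs: TGACNNNGC, a core of the antioxidant response element, TGAGTCA, the AP-1 element, and TGCGCNC and TGCACNC, the cores of metal response elements.
Srxn1, chr2:152105274-152105523: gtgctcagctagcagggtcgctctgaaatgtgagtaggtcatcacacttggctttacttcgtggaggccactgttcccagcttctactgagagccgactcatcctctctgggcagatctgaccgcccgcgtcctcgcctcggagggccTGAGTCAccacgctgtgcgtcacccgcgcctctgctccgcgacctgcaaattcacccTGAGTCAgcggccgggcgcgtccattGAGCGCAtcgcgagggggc
Mt2, chr8:94172368-94172617: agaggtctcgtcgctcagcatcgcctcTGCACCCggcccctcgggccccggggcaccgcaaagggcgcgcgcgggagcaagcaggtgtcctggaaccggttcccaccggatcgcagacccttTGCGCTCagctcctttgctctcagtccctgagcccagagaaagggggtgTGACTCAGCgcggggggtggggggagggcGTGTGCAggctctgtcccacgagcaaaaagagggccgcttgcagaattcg
Mt1, chr8:94178839-94179088: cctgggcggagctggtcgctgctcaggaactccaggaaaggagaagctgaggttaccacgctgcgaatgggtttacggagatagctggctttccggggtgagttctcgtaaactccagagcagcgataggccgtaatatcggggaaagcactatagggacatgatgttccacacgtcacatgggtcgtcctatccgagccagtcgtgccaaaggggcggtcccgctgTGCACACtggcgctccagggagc
The Srxn1 window held 2 matches to TGAGTCA, 1 to TGCGCNC and 0 to TGACNNNGC. Its second TGAGTCA is followed by GC, and that stretch differs from TGACNNNGC in 1 base only. The form with that base was not searched, so the 0 holds for TGACNNNGC alone. The Mt2 window held 1 match to TGACNNNGC that overlaps a TGAGTCA match on the other strand, 1 match to TGCGCNC and 2 to TGCACNC. In the Mt1 window there was 1 match to TGCACNC. With the 50 bases after the start added, metal element cores numbered 4 at Mt2 and 3 at Mt1. Among 32536 RefSeq promoters of the same length, TGACNNNGC was present in 10.2%, TGAGTCA in 4.45%, TGCGCNC in 12.6% and TGCACNC in 10.5%. Other forms of these elements were not searched, and a match is a description of letters only.

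Levels differed widely between the genes, and between subtypes and ages of 1 gene. Ranked over the 30 combinations of subtype and group that had at least 10 cells in both mice, Mt1 reached its highest level, 4245 CPM ± 3265 (SD, n = 2) in airway smooth muscle at P21. CPM is not divided by gene length, so genes are ranked here per kilobase of exon. On that scale the highest mean of Mt1 was 3407 CPM per kilobase, above the highest mean of Mt2 (416) and of each of the other genes. Slc7a11 and Aldh3a1 had the lowest medians over the 30 combinations, 0.0307 and 0.00085 CPM per kilobase, while Mt1 had the highest, 40.1.

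**Figure D1:**
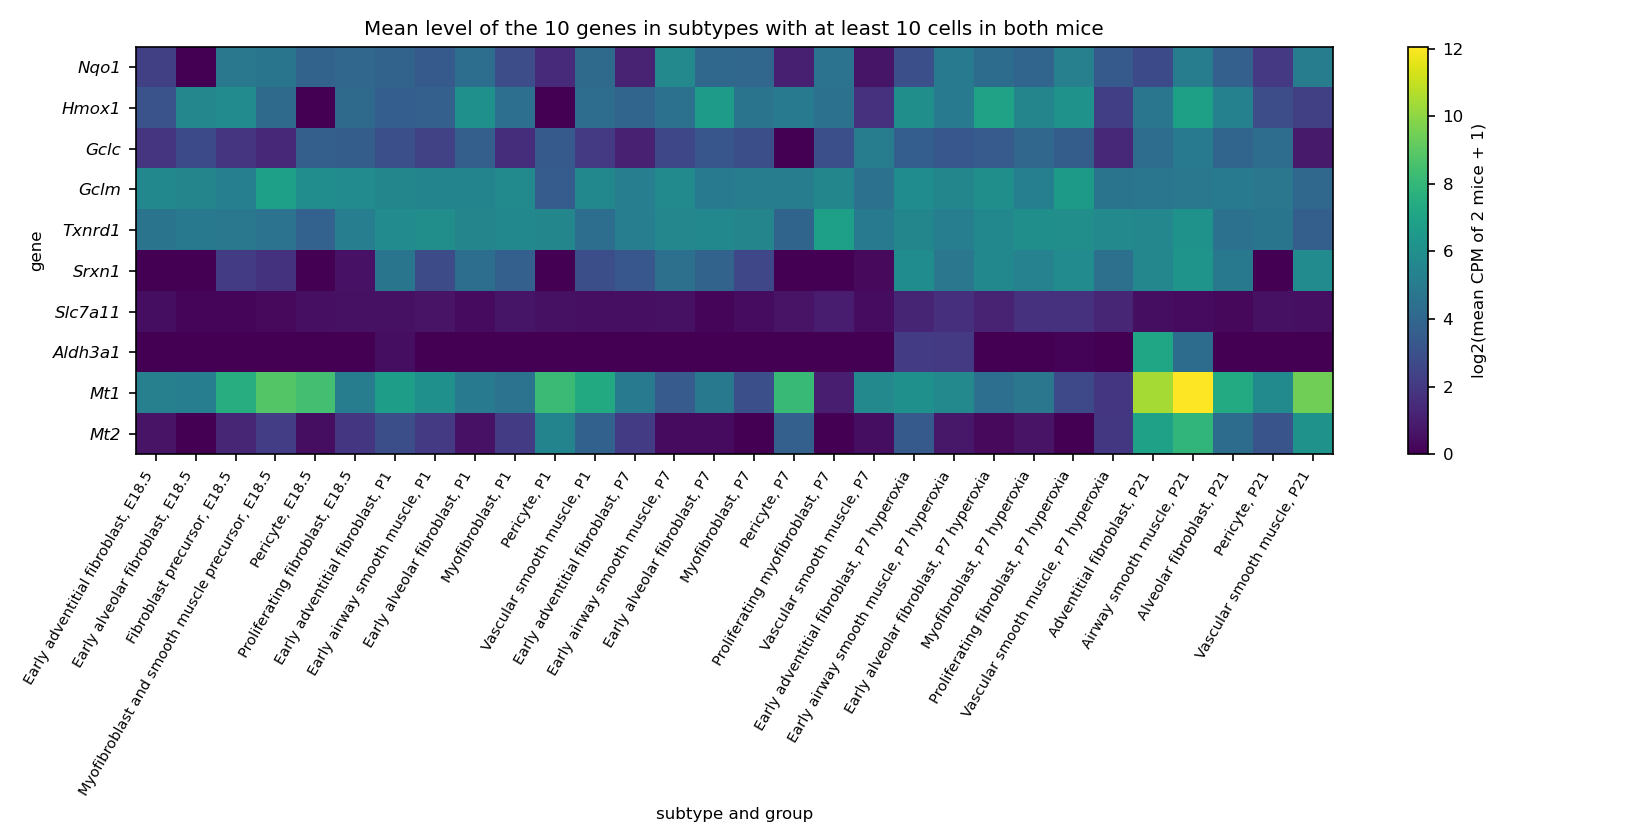
Mean level of the 10 genes (rows) in each combination of subtype and group with at least 10 cells in both mice (columns), as log2(mean CPM of 2 mice + 1) on the colour scale. Mt1 is brightest in airway smooth muscle at P21 (mean 4245 CPM), and Aldh3a1 is at most 0.378 CPM outside adventitial fibroblasts and airway smooth muscle at P21 and their early forms in hyperoxia (3.32 and 3.07 CPM).

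Mt1 and Mt2 rose in airway smooth muscle between P7 and P21. This class joins the early and later subtype names, and most of its P21 cells (113 cells) carry the later name. Mt1 was at 9.00 CPM in the female and 10.7 CPM in the male mouse at P7, and at 1847 and 6104 CPM at P21. Mt2 was at 0 and 0.528 CPM at P7, and at 102 and 355 CPM at P21. In both genes every P21 mouse was far above every P7 mouse. The log2 change was 8.93 for Mt1 (SE 1.03, adjusted p = 0.00641) and 11.47 for Mt2 (SE 1.57, adjusted p = 0.0129; edgeR's quasi-likelihood test with Benjamini-Hochberg adjustment over all 13496 genes tested). In this comparison 1.13% of all genes tested passed the threshold of 0.05. Both calls were kept when any 1 mouse was left out. Without the term for sex, Mt2 was no longer past the threshold (log2 10.14, edgeR adjusted p = 0.0854). Both males came mainly from 1 run, while the females had different main runs.

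The rise was also seen in the number of cells with a read. Mt1 was detected in 43 of 62 female and 40 of 57 male airway smooth muscle cells at P21, or 69.4% and 70.2% (95% Wilson intervals 57.0% to 79.4% and 57.3% to 80.5%). At P7 it was detected in 4 of 75 and 7 of 64 cells, or 5.33% and 10.9% (2.09% to 12.9% and 5.40% to 20.9%). With every cell thinned to 100000 reads, the shares were 66.4% and 71.4% at P21 and 5.28% and 9.21% at P7. These intervals cover counting error only. The summed level of 3 contractile markers in this class was lower at P21 (3231 to 3834 CPM) than at P7 (10975 to 13308 CPM), none of the 3 was at 0, and the part of this shift in the metallothionein result was not tested.

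Adventitial fibroblasts, which surround airways and vessels, held the next highest Mt1 and Mt2 levels. Mt1 was at 47.5 and 7.69 CPM at P7 in the female and male mouse and at 912 and 1798 CPM at P21, and Mt2 was at 3.55 and 3.11 CPM against 102 and 130 CPM. The groups did not overlap, but neither gene passed the threshold (edgeR: Mt1 log2 6.28, SE 1.27, adjusted p = 0.114; Mt2 log2 5.40, SE 0.97, adjusted p = 0.0732). For this class 0.124% of 15289 genes passed. In vascular smooth muscle Mt1 was at 74.4 and 24.5 CPM at P7 and 323 and 1064 CPM at P21, again without overlap and not past the threshold (log2 2.93, SE 1.21, edgeR adjusted p = 0.687; 0.0886% of 12417 genes passed). Alveolar fibroblasts, the matrix cells of the gas exchange region, had Mt1 at 30.5 and 25.9 CPM at P7 and 161 and 169 CPM at P21 (log2 2.77, SE 1.76, edgeR adjusted p = 0.791; 0.0702% of 15670 genes passed).

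Pericytes, the cells that wrap capillaries, had the opposite order. Their Mt1 level was 150 and 413 CPM at P7 and 60.0 and 45.7 CPM at P21, so every P21 mouse was below every P7 mouse. The change did not pass the threshold (log2 -2.37, SE 0.84, edgeR adjusted p = 0.955; 0.0504% of 11894 genes passed). Across subtypes at P21, airway smooth muscle (1936 and 6554 CPM) stood above adventitial fibroblasts (947 and 1801 CPM) in Mt1, with values of the 2 subtypes that did not overlap. Adventitial fibroblasts and vascular smooth muscle (323 and 1064 CPM) overlapped. Mt2 followed the same order of means, 245 CPM ± 193, 118 CPM ± 16.7 and 72.6 CPM ± 73.7 (SD, n = 2), and neighbours in that order overlapped.

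**Figure D2:**
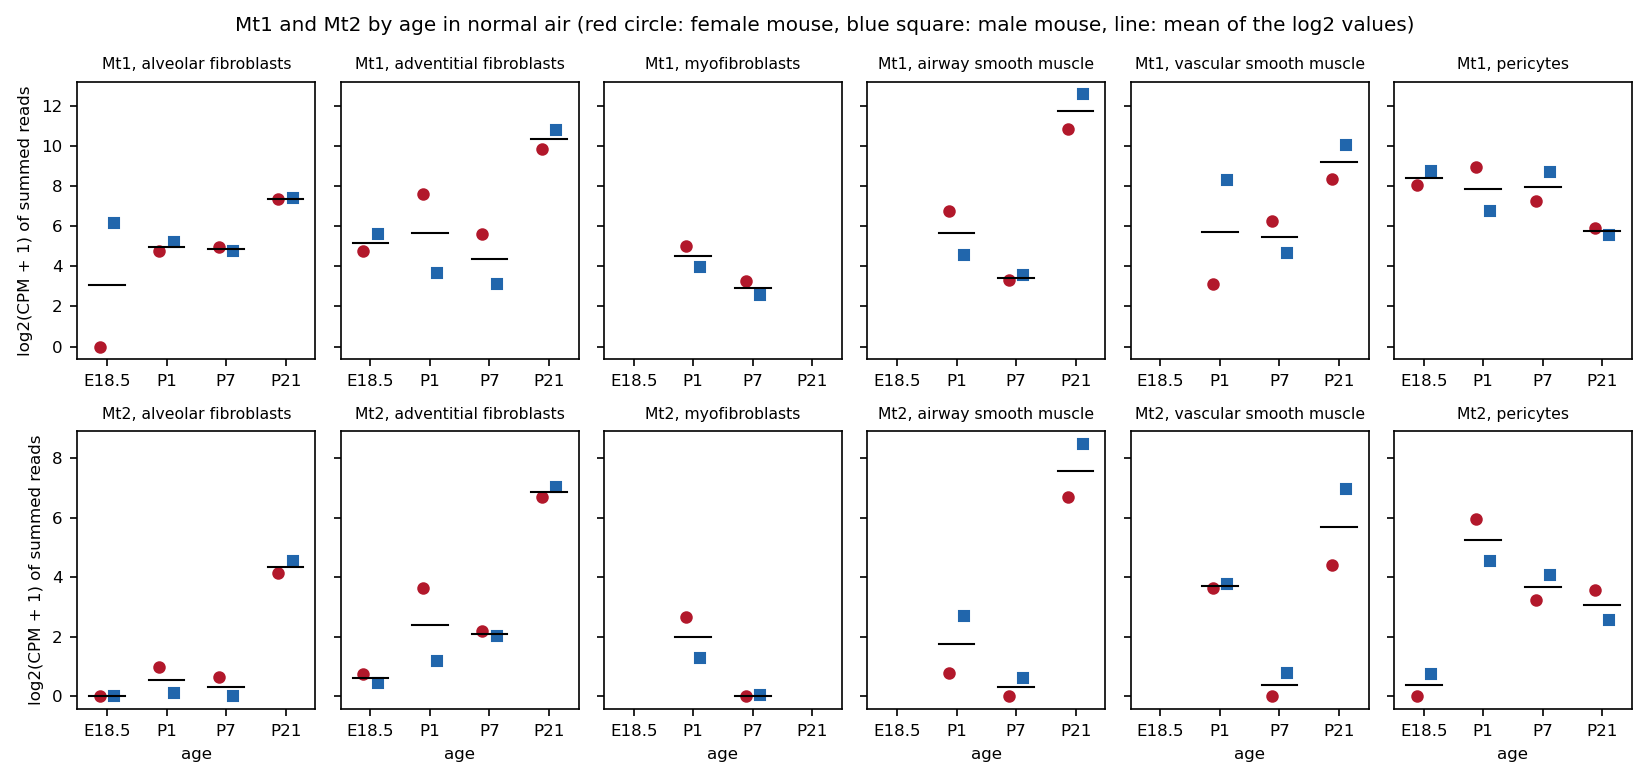
Mt1 and Mt2 by age in normal air in each class, as log2(CPM + 1) of reads summed per mouse; circles are female mice, squares male mice, and lines the mean of the log2 values. In airway smooth muscle the P21 mice (1847 and 6104 CPM of Mt1) lie far above the P7 mice (9.00 and 10.7 CPM).

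Before birth Mt1 had another distribution. At E18.5 it was at 296 and 605 CPM in myofibroblast and smooth muscle precursors, 267 and 435 CPM in pericytes, and 155 and 211 CPM in fibroblast precursors. Mt2 was at most 4.13 CPM in these 3 subtypes. The precursor names occur at E18.5 only, so no change with age was tested for them. In the whole mouse, Mt1 was at 173 and 281 CPM at E18.5 and at 85.3 and 36.4 CPM at P1. It was at 26.6 and 30.0 CPM at P7 and at 631 and 1754 CPM at P21. The P7 levels were the lowest of the 4 ages in normal air. Whole-mouse levels pool all subtypes, whose mix differed between ages, and the part of this mix was not tested.

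Most cells with an Mt2 read also had an Mt1 read, while most Mt1 cells had none of Mt2. Mt1 had a read in 1130 of the 5480 cells and Mt2 in 346, and 295 cells had both, which is 26.1% of the Mt1 cells and 85.3% of the Mt2 cells. At P21 the overlap was 111 of the 119 Mt2 cells in adventitial fibroblasts and 50 of the 51 Mt2 cells in airway smooth muscle. At P7 in normal air, where Mt2 was rare, it was 2 of 4 Mt2 cells in early adventitial fibroblasts and 0 of 2 in early airway smooth muscle. Per kilobase of exon (1.246 for Mt1, 0.588 for Mt2), the Mt1 level exceeded that of Mt2 in 24 of the 25 libraries of mouse and class with at least 100 Mt2 reads. The median ratio was 4.38, with a range of 0.307 to 26.0, and the lowest value was that of vascular smooth muscle of the female P1 mouse. The joined annotated exons of Mt1 cover its whole gene, while those of Mt2 do not. The 2 lengths are therefore not on a like scale, and the ratio depends on them.

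Aldh3a1 encodes an aldehyde dehydrogenase that oxidises aromatic and lipid-derived aldehydes. Only 77 cells had a read. Of the 43 cells with at least 20 reads, 23 were adventitial fibroblasts of the female and 6 of the male P21 mouse. Its level in adventitial fibroblasts rose from 0.0330 and 0 CPM at P7 to 54.1 and 220 CPM at P21. The P7 reads numbered 2, and the ratio of pooled levels was 7308 (exact 95% interval 2023 to 60345, counting error only). The log2 change was 12.77 (SE 1.83, edgeR adjusted p = 0.0469). One cell of the male P21 mouse held 76.8% of that library's Aldh3a1 reads, and without it the level there was 53.8 CPM, close to that of the female. A fit without that cell, chosen after the data had been seen, gave a log2 change of 11.70 (SE 2.15, edgeR adjusted p = 0.0896), so the call rests on this cell. It was also lost without either P7 mouse in normal air, without either P21 mouse and without the male hyperoxia mouse (edgeR adjusted p from 0.0501 to 0.363).

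Airway smooth muscle held the second highest Aldh3a1 level at P21, 23.9 and 9.88 CPM in the class, against 0 and 0.0160 CPM at P7 (log2 10.55, SE 3.90, edgeR adjusted p = 0.383). In alveolar fibroblasts at P21 it was at 0.00661 and 0 CPM by subtype. Hyperoxia at P7 gave 4.56 and 2.06 CPM in adventitial fibroblasts, against 0.0330 and 0 CPM in normal air. This change was not past the threshold (log2 7.56, SE 1.6, edgeR p = 0.000984, adjusted p = 0.396), and reads came from 4 cells in each hyperoxia mouse.

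Nqo1 encodes a quinone reductase and is a standard readout of NRF2. It was found in 496 cells, and its highest mean level was 50.8 CPM ± 24.7 (SD, n = 2) in early airway smooth muscle at P7. Pericytes lay low after birth, at 0 to 5.34 CPM. Between E18.5 and P1, Nqo1 rose in alveolar fibroblasts from 0 reads in both mice to 18.2 and 20.4 CPM (edgeR adjusted p = 0.0350). Against a limit of 3 reads over the E18.5 group this is 108-fold, by counting error of reads alone. Cells with an Nqo1 read held a median of 69 reads, so this is no lower bound on the change. In this class 6.16% of 15670 genes passed the threshold between these ages, 956 higher and 10 lower, and the median log2 change of all genes was 1.35. The E18.5 libraries held 14 and 24 cells. A count of 0 in 14 or 24 cells allows shares of up to 21.4% and 12.5%, above the P1 shares of 8.29% and 5.34%, so a difference in the share of cells was not detectable at this depth. In the 425 and 335 fibroblast precursors of the same E18.5 mice, Nqo1 was at 19.4 and 35.2 CPM.

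Hmox1 encodes haem oxygenase 1, which breaks haem down to biliverdin, iron and carbon monoxide. Its highest mean level was in early alveolar fibroblasts, 123 CPM ± 26.9 in hyperoxia and 100 CPM ± 1.46 in normal air at P7 (SD, n = 2), with airway smooth muscle at P21 between them at 113 CPM ± 120. The P7 level in normal air, 102 and 99.4 CPM, was above the P1 level of 58.1 and 71.9 CPM and the P21 level of 33.3 and 42.8 CPM in alveolar fibroblasts. Neither step passed the threshold (edgeR: P1 to P7 log2 0.58, SE 0.69, adjusted p = 1; P7 to P21 log2 -1.06, SE 0.69, adjusted p = 0.802). In pericytes Hmox1 had 0 reads in all mice at E18.5 and P1, and the 62.0 CPM of the male P7 mouse stood against 0 CPM in the female.

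Gclc and Gclm encode the catalytic and the modifier subunit of glutamate-cysteine ligase, the first enzyme of glutathione synthesis. Gclm was found in 1841 cells and Gclc in 525. Gclm was the more even of the pair over subtypes: its means ranged from 10.5 CPM in pericytes at P1 to 111 CPM ± 53.9 (SD, n = 2) in myofibroblast and smooth muscle precursors at E18.5. Gclc ranged from 0.0249 to 33.3 CPM, and its highest mean, in vascular smooth muscle at P7, came from the female mouse alone (65.6 against 0.927 CPM). With edgeR neither gene was called in any comparison, while DESeq2 called Gclc in pericytes from P1 to P7 and in pericytes and adventitial fibroblasts from P7 to P21. Between P7 and P21, Gclc was higher in both P21 mice than in both P7 mice in 4 of 5 classes, as were 17.6% of the tests of all genes, among them airway smooth muscle, at 4.46 and 5.91 CPM against 23.1 and 46.6 CPM (log2 3.12, SE 1.50, edgeR adjusted p = 0.512).

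Slc7a11 encodes xCT, the light chain of the transporter that brings in cystine for glutathione synthesis. It was detected in 1276 cells, but 92.6% of these had 1 to 5 reads, and the median was 1 read. Levels in normal air were at most 1.30 CPM in any library. All 13 cells with at least 20 reads came from hyperoxia, 1 from the female and 12 from the male mouse. Of these, 6 belonged to the Male hyperoxic fibroblast subtype, 55 cells found only in the male hyperoxia mouse, where the level was 8.10 CPM. In alveolar fibroblasts Slc7a11 was at 0.123 and 0.231 CPM in normal air and 1.40 and 1.06 CPM in hyperoxia (log2 2.92, SE 1.76, edgeR adjusted p = 1). By the labels, the mesenchymal sort of each mouse lay on 2 plates. Only the male hyperoxia mouse was compared by plate here, so plate differences in the other mice are not known. Its plates differed in Slc7a11: 0.409 and 2.37 CPM in alveolar fibroblasts, 0.843 and 4.20 CPM in adventitial fibroblasts, 0.270 and 6.60 CPM in myofibroblasts, and 0.668 and 4.07 CPM in vascular smooth muscle. The second plate was the higher one in all 4 classes. The share of adventitial fibroblasts with a read depended on depth: in hyperoxia it averaged 44.2% with all reads and 11.0% after thinning, and in normal air 28.5% and 3.96%.

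Txnrd1 encodes cytosolic thioredoxin reductase, which keeps thioredoxin reduced. It was the most often detected of the 10 genes, with a read in 2069 cells, and its means ranged from 11.4 CPM in vascular smooth muscle at P21 to 112 CPM ± 28.0 (SD, n = 2) in proliferating myofibroblasts at P7. With all mice, neither edgeR nor DESeq2 called it in any comparison. From E18.5 to P1 in alveolar fibroblasts edgeR called it without the female E18.5 mouse and with a minimum of 20 cells.

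Srxn1 encodes sulfiredoxin, which restores over-oxidised peroxiredoxins. It was found in 564 cells. It was listed with 0 to 0.0498 CPM in pericytes at every age, and had 0 reads in the 3 libraries of proliferating myofibroblasts. Between E18.5 and P1 it rose in both fibroblast classes. In adventitial fibroblasts it had 0 reads in both E18.5 mice and 37.4 and 12.5 CPM at P1 (edgeR adjusted p = 0.0226, with 0.17% of all genes past the threshold). In alveolar fibroblasts it had 0 reads at E18.5 and 20.5 and 18.5 CPM at P1 (edgeR adjusted p = 0.0300, with 6.16% of all genes past the threshold). Against a limit of 3 reads over the E18.5 group these are 431-fold and 109-fold, by counting error of reads alone. Cells with an Srxn1 read held a median of 110 reads, so neither is a lower bound on the change. The E18.5 libraries of the adventitial class held 26 and 29 cells, and 0 of these allow shares of up to 11.5% and 10.3%, near the P1 shares of 10.1% and 10.4%. For the alveolar class, the cell numbers and limits at E18.5 are those given for Nqo1. In the fibroblast precursors of the E18.5 mice Srxn1 was at 5.55 and 0.904 CPM.

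The calls between E18.5 and P1 depended on which mice entered the fit. A fit of the 4 mice of the contrast alone called 0 of the 3. The alveolar calls of Nqo1 and Srxn1 were lost when any 1 mouse of P1, P7, P21 or hyperoxia was left out, and that of Srxn1 in adventitial fibroblasts without the female P1, the female P21 or the male hyperoxia mouse. In the alveolar class the summed epithelial markers ranged from 25.9 to 1093 CPM at E18.5 (4 to 6 of 8 at 0) and from 108 to 133 CPM at P1, and immune markers from 11.3 to 317 CPM (3 to 4 of 8 at 0) and from 18.6 to 23.9 CPM; their part in the result was not tested. In pericytes 0 of 8 of the genes tested passed between these ages, and 0.042% of all genes passed.

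In the whole mouse, Srxn1 was at 4.29 and 0.980 CPM at E18.5, 22.9 and 15.5 CPM at P1, 11.8 and 6.71 CPM at P7, 33.5 and 45.4 CPM at P21, and 41.0 and 46.9 CPM in hyperoxia at P7. The hyperoxia mice lay near the P21 level and above both P7 mice in normal air. These levels pool all subtypes, and the mix differed between groups. At P7 the cells included 339 myofibroblasts in normal air and 103 in hyperoxia, and 104 and 225 early adventitial fibroblasts. The part of the mix in this difference was not tested.

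In hyperoxia, Srxn1 was higher without overlap between mice in 4 of 5 classes, more than any other of the 10 genes, although none passed the threshold. By class, 17.2% to 31.3% of all genes tested were higher in this sense. The 5 classes come from the same 4 mice and are not independent of each other. In adventitial fibroblasts it was at 12.8 and 4.05 CPM in normal air and 45.9 and 69.9 CPM in hyperoxia (log2 2.87, SE 0.83, edgeR p = 0.00711, adjusted p = 0.621). In myofibroblasts the levels were 7.66 and 2.22 CPM against 47.1 and 31.5 CPM (log2 3.05, SE 1.02, edgeR p = 0.0220, adjusted p = 0.725). The male value of 31.5 CPM came from 1 plate: the 19 cells of the first plate had 0 CPM and the 26 of the second 56.9 CPM. With the first plate alone the log2 change was 1.27 (SE 2.68, edgeR adjusted p = 0.988), and the groups overlapped. Alveolar fibroblasts had 17.4 and 8.72 CPM against 44.7 and 51.8 CPM (log2 1.82, SE 0.99, edgeR adjusted p = 1), and vascular smooth muscle 0 and 0.445 CPM against 16.7 and 24.5 CPM (log2 7.46, SE 3.70, edgeR adjusted p = 1). In these 4 classes both hyperoxia mice were above both mice in normal air. Airway smooth muscle overlapped, at 9.14 and 33.2 CPM against 25.1 and 28.4 CPM.

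In CPM without TMM scaling, Hmox1 was higher without overlap in 2 classes. In adventitial fibroblasts it was at 14.5 and 13.3 CPM in normal air and 57.3 and 68.2 CPM in hyperoxia (log2 2.01, SE 1.63, edgeR adjusted p = 0.762), where the plates of the male had 89.7 and 30.6 CPM. In alveolar fibroblasts, where it was already high, it was at 102 and 99.4 CPM against 142 and 104 CPM (log2 0.15, SE 0.68, edgeR adjusted p = 1). The TMM factors of these libraries were 1.06 and 1.01 in normal air and 1.11 and 1.18 in hyperoxia. Scaled by them, the male hyperoxia mouse falls below both mice in normal air, so the alveolar groups overlap. The remaining 3 classes overlapped. An interaction term, with mice as blocks, compared the effect between these fibroblast classes: the hyperoxia effect on Hmox1 was larger in adventitial than in alveolar fibroblasts by 1.89 on the log2 scale (SE 0.41, edgeR p = 0.00601), which was not past the threshold (adjusted p = 0.712). For this test 0% of 15587 genes passed, and 1064 had an unadjusted p below 0.05. DESeq2 called 557 genes (3.57%), Hmox1 among them.

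**Figure D3:**
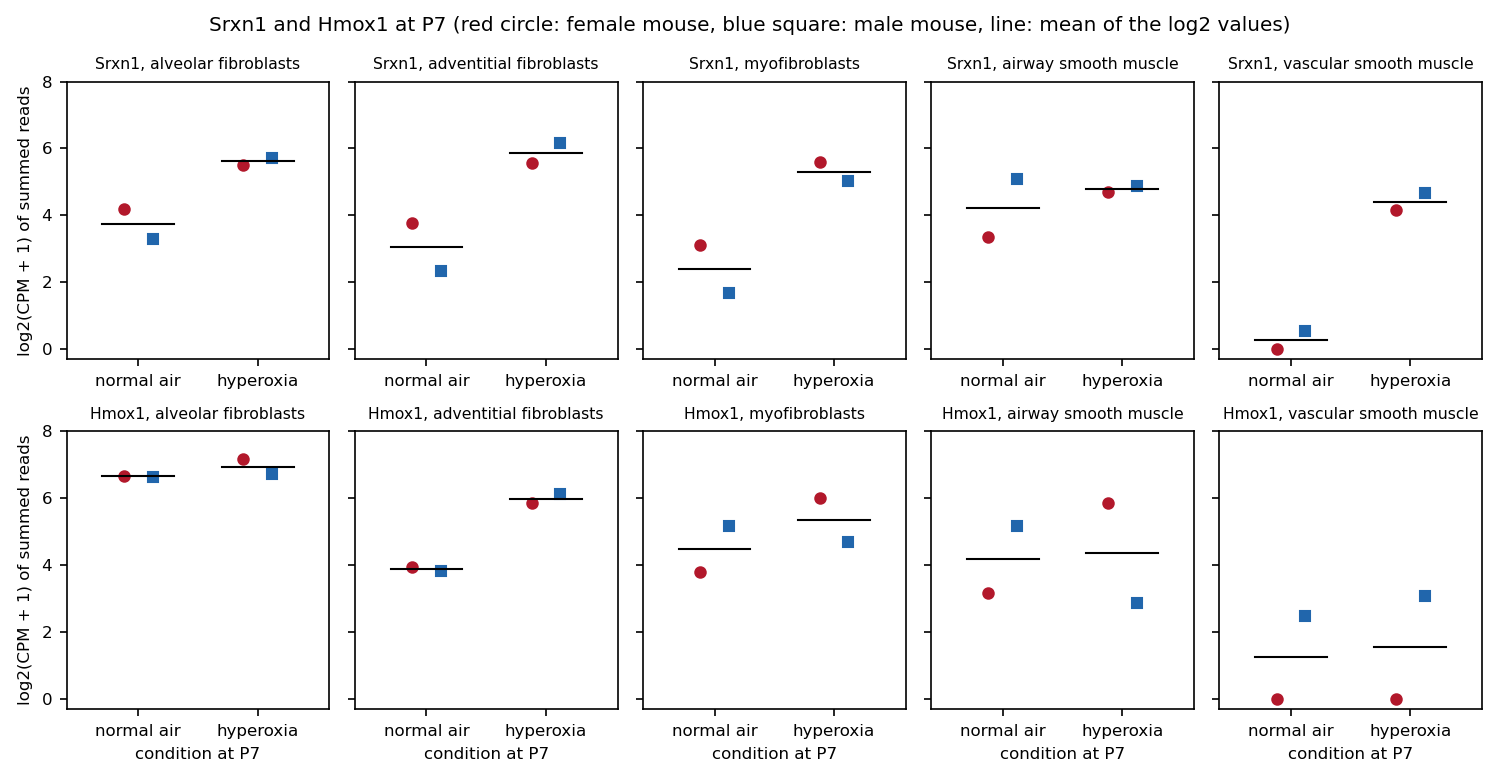
Srxn1 and Hmox1 at P7 in normal air and hyperoxia in 5 classes, as log2(CPM + 1) of reads summed per mouse; circles are female mice, squares male mice, and lines the mean of the log2 values. For Srxn1 both hyperoxia mice lie higher than both normal air mice in 4 of the 5 classes. By class, 17.2% to 31.3% of all genes tested were higher in this sense.

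Over all 10 genes and 5 classes, 47 hyperoxia tests could be made and 0 passed (edgeR). The share of all genes called was 0% in alveolar fibroblasts, adventitial fibroblasts, myofibroblasts, airway smooth muscle and vascular smooth muscle. Unadjusted p-values below 0.05 were found for 2 of 10 genes in adventitial fibroblasts (8.01% of all genes), 1 of 10 in airway smooth muscle (3.10%), 0 of 9 in alveolar fibroblasts (2.68%), 1 of 9 in myofibroblasts (6.33%) and 1 of 9 in vascular smooth muscle (2.57%). DESeq2 called 1.92% of the tests of all genes and 4 of the 47 tests here: Srxn1 in adventitial fibroblasts and in myofibroblasts, Aldh3a1 in adventitial fibroblasts, and Mt1 in vascular smooth muscle. In 20 of the 47 tests both hyperoxia mice were above both mice in normal air, and in 1 test both were below, as in 17% of the tests of all genes. Of all genes tested, 27.2% were above in this sense in alveolar fibroblasts, 31.3% in adventitial fibroblasts, 24.1% in myofibroblasts, 17.2% in airway smooth muscle and 22.8% in vascular smooth muscle.

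By gene, in CPM without TMM scaling, both hyperoxia mice exceeded both normal air mice in 4 of 5 classes for Srxn1, in 3 for Mt1 and Mt2, in 2 for Hmox1, Nqo1 and Slc7a11, and in 1 for Gclc, Gclm and Txnrd1. Aldh3a1 was above in 1 of the 2 classes where it was tested. In adventitial fibroblasts all 10 genes had a positive log2 change, with a median of 1.83, while 54.3% of all genes were positive with a median of 0.12. Alveolar fibroblasts had 6 of 9 positive (median 0.17, all genes 0.06), myofibroblasts 8 of 9 (1.57, all genes -0.01), airway smooth muscle 7 of 10 (0.56, all genes -0.06) and vascular smooth muscle 7 of 9 (0.63, all genes -0.01).

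**Figure D4:**
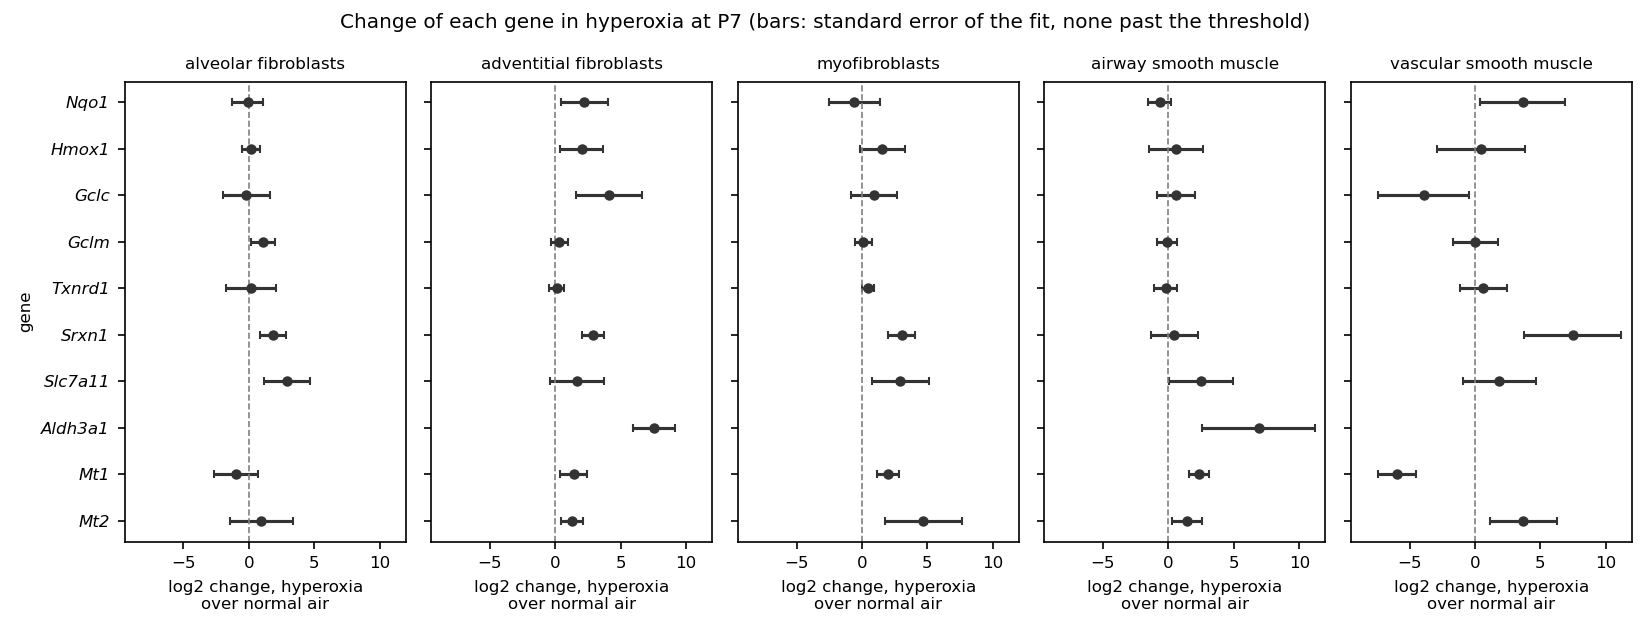
Log2 change of each gene in hyperoxia over normal air at P7 in 5 classes; points are edgeR estimates, bars their standard errors, and the dashed line marks no change. All 10 genes lie right of the line in adventitial fibroblasts (median 1.83), and none of the 47 changes passed the threshold.

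In hyperoxia both metallothioneins were higher without overlap between mice in adventitial fibroblasts and myofibroblasts, and they differed in direction in vascular smooth muscle. Mt1 was higher in both hyperoxia mice in airway smooth muscle (9.00 and 10.7 against 32.1 and 68.8 CPM; log2 2.30, SE 0.77, edgeR adjusted p = 1), in myofibroblasts (8.68 and 4.94 against 25.1 and 27.6 CPM) and in adventitial fibroblasts (47.5 and 7.69 against 68.9 and 63.2 CPM). The last male value joins 2 plates at 82.3 and 29.8 CPM. Mt2 was at 3.55 and 3.11 against 11.7 and 7.41 CPM in adventitial fibroblasts, and at 0 and 0.0329 against 0.814 and 0.282 CPM in myofibroblasts. Neither change of Mt2 passed the threshold (log2 1.28, edgeR adjusted p = 0.693, and log2 4.69, edgeR adjusted p = 0.863). In vascular smooth muscle Mt1 was lower, at 74.4 and 24.5 CPM in normal air and 0.380 and 5.05 CPM in hyperoxia (log2 -5.96, SE 1.47, edgeR p = 0.00192, adjusted p = 1), where Mt2 was at 0 and 0.742 CPM against 4.74 and 1.01 CPM, on 20 and 68 reads. These levels in hyperoxia were small beside those of P21, where airway smooth muscle had 1847 and 6104 CPM of Mt1.

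Several measures moved with hyperoxia. The median number of genes detected per cell was 4268 and 5545 in the hyperoxia mice and 2988 and 2963 in normal air. In adventitial fibroblasts 6 endothelial markers summed to 26.1 and 68.2 CPM in hyperoxia, with none at 0, and to 0.148 and 0.275 CPM in normal air, with 1 to 2 at 0. Immune markers there summed to 20.6 and 20.9 CPM against 20.9 and 39.2 CPM. In myofibroblasts they summed to 94.1 to 132 CPM in hyperoxia against 40.0 to 72.2 CPM in normal air. Immune markers overlapped in alveolar fibroblasts, airway and vascular smooth muscle. Endothelial markers in airway smooth muscle summed to 5.44 to 9.21 CPM against 0.0681 to 0.128 CPM. They overlapped in alveolar fibroblasts, myofibroblasts and vascular smooth muscle, in the last at 8.63 to 68.7 CPM against 0.0377 to 20.5 CPM. The share of cells with a read, after thinning, was higher in both hyperoxia mice for 70.8% of all genes in alveolar and 72.4% in adventitial fibroblasts, and shares of cells with a read of the 10 genes are to be read against this. Within the run that held both conditions, Srxn1 was at 15.6 CPM in the 14 cells from normal air and 35.4 CPM in the 9 cells from hyperoxia, with 2 positive cells in each, while Hmox1 was at 48.0 and 18.8 CPM and Mt1 at 27.5 and 73.4 CPM. By the sort names, all of these cells came from a CD31 sort and not from the mesenchymal sort. With so few cells these values carry no test. The part of run, gene detection and endothelial and immune transcripts in the hyperoxia differences was not tested.

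Between P1 and P7, 0 of 55 tests passed (edgeR), as did 0% of all genes in each of the 6 classes. Both P7 mice were below both P1 mice in 19 tests and above in 3, against 17.7% and 19.4% of the tests of all genes. Mt1 in airway smooth muscle went from 108 and 22.4 CPM to 9.00 and 10.7 CPM (log2 -2.87, SE 0.81, edgeR p = 0.00598, adjusted p = 0.888), and Mt2 from 0.731 and 5.55 CPM to 0 and 0.528 CPM (log2 -4.33, SE 1.21, edgeR p = 0.00580, adjusted p = 0.888). Unadjusted p-values below 0.05 were found for 3 of 10 genes in airway smooth muscle (5.25% of all genes), for 1 each in adventitial fibroblasts (5.60%), pericytes (3.99%) and vascular smooth muscle (3.73%), and for 0 in alveolar fibroblasts (2.36%) and myofibroblasts (8.01%). DESeq2 called 4 of the 55 tests and 3.11% of those of all genes. Between P7 and P21, 3 of 46 tests passed (Mt1 and Mt2 in airway smooth muscle, Aldh3a1 in adventitial fibroblasts), both P21 mice were above both P7 mice in 18, and DESeq2 called 12. Of the tests of all genes, 17.6% were above in this sense and DESeq2 called 6.34%. By class, edgeR called 0.0504% to 1.13% of all genes between these ages.

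Other genes of the same pathways were followed in 7 lists with 76 genes, of which 72 were in the table: regulators, glutathione, thioredoxin and NADPH, haem and iron, detoxification, metal handling and glucocorticoid response. In airway smooth muscle between P7 and P21, 5 of 65 list genes tested rose and 0 fell, against 99 and 53 of all 13496 genes. Gstm1, a glutathione transferase, went from 104 and 186 CPM to 1085 and 1770 CPM (log2 3.65, SE 0.51, edgeR adjusted p = 0.0133). Gstm1 has near-identical family members, so its reads are uncertain. Of the 8 glucocorticoid response genes, 3 rose (Per1, Tsc22d3 and Klf9), with a list median of 2.77 on the log2 scale against -0.09 for all genes. Tsc22d3 went from 128 and 125 CPM to 563 and 1039 CPM (log2 3.0, SE 0.54, edgeR adjusted p = 0.0381), and Klf9 from 49.2 and 57.6 CPM to 243 and 392 CPM (log2 2.90, SE 0.51, edgeR adjusted p = 0.0344). Fth1, the ferritin heavy chain, was the fifth gene that rose. Of the 7 metal handling genes tested in this class, 0 passed. Between the same ages the glucocorticoid list median was also above that of all genes in the other classes, with 0 of the list called there. It was 2.68 in vascular smooth muscle (all genes -0.09) and 2.23 in alveolar fibroblasts (-0.04). In adventitial fibroblasts it was 1.71 (all genes 0.10) and in pericytes 0.44 (0.20).

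In adventitial fibroblasts between P7 and P21, 1 of 68 list genes passed: Gstm1, from 190 and 208 CPM to 765 and 1342 CPM (log2 2.55, SE 0.38, edgeR adjusted p = 0.0469). Between E18.5 and P1, 7 of 68 list genes rose in alveolar fibroblasts, where 956 of all 15670 genes rose, and 1 of 68 in adventitial fibroblasts, where 24 of 15289 rose. Akr1b8, an aldo-keto reductase, rose in both, from 0 reads to 14.0 and 10.6 CPM in the alveolar class (edgeR adjusted p = 0.0384) and from 0 and 0.0736 CPM to 32.3 and 45.5 CPM in the adventitial class (edgeR adjusted p = 0.0346). Blvra, biliverdin reductase A, reached 41.7 and 58.0 CPM from 0 and 0.0737 CPM, and Gss, glutathione synthetase, reached 10.5 and 20.8 CPM from 0 and 0.0737 CPM (edgeR adjusted p = 0.0284 and 0.0427). In hyperoxia 0 list genes passed in any of the 5 classes, and the 10 regulators, among them Nfe2l2, Keap1 and Bach1, had medians between -0.39 and 0.36 on the log2 scale.

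The pattern over the 64 libraries of mouse and subtype was compared with that of every gene with a mean of at least 10 CPM, by Pearson's r of log2(CPM + 1), as a description. The libraries share mice and runs, so no p is given. Mt1 and Mt2 were nearest to each other (r = 0.70), followed for Mt1 by Tcp11l2 (0.67) and Errfi1 (0.56) and for Mt2 by Ecm2 (0.62) and Hspa1a (0.61). Aldh3a1 was most like Mmp3 (0.70), C3 (0.66) and Tnfsf13b (0.62). Hmox1 was most like Cp, the ferroxidase ceruloplasmin (0.69), Ptger2 (0.67) and Agpat4 (0.67), and Nqo1 like Aagab (0.65), Tle6 (0.58) and Siah1b (0.58). Slc7a11 was nearest to Actg-ps1 (0.90), Tubb3 (0.83) and Rap2b (0.76). None of these 4 NRF2 targets had another of the 10 genes among its 3 nearest genes. Aldh3a1 and Slc7a11 had means below 10 CPM and were not among the genes searched, so neither could be found there. Pairwise, the highest r with another of the 10 genes was 0.54 for Aldh3a1 (Mt2) and 0.42 for Hmox1 (Srxn1). For Nqo1 it was 0.29 (Hmox1) and for Slc7a11 0.28 (Srxn1).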

How the data were processed

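Single mesenchymal cells of 10 mice (5480 cells, 18072 genes) had been sorted and sequenced in plates with Tn5 libraries. The deposited values are whole-number read counts per gene and cell, not normalized by the authors. STAR 2.5.2b and HTSeq 0.10 are named in the submitters' processing notes, with no role. The build named there is GRCh38, a human build, so the mouse build behind the counts is not given in the sources used here, nor are the filters on genes and cells or the use of strand. Subtype names are the authors', given per cell in the labels, with no new clustering here. Doublets were not called. The 10 genes and all lists were chosen with earlier results of these data known.

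Counts were summed per mouse and class (at least 10 cells; early and later names of a class joined) and tested in R 4.3.3 with edgeR 4.0.16, using filterByExpr by group, TMM, a two-sided quasi-likelihood test with terms for group and sex, all groups with enough cells in 1 fit per class, and Benjamini-Hochberg adjustment over all genes tested, threshold 0.05. The fits had 2 to 4 residual degrees of freedom. TMM factors ranged from 0.770 to 1.19, and CPM in the text are not TMM scaled. The class by hyperoxia interaction used the 4 mice at P7 with the mouse as a block. Alternatives were DESeq2 1.42.0, limma 3.58.1 and the settings of the closing section. The script was tested on simulated data with known changes and a fixed spread between libraries that was not taken from these data. The simulation therefore gives no power or error rate for the tests reported here. Genes were named by rule: all 10 in each comparison, and up to 3 list genes past the threshold, with at least 10 CPM in a group and the same direction in both sexes, by size of change. Per1 and Fth1 fall outside that rule and were named after their values were seen.

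Depth was 294154721 to 671766116 reads per mouse. For shares of cells with a read, cells were also thinned to 100000 reads, which left out 168 cells. Intervals are 95% Wilson intervals, and a count of 0 allows up to 3 counts. Both cover counting error only, since reads copied from 1 molecule count separately. Promoter sequences are from RefSeq (GRCm38.p6), and exon lengths from GENCODE M21.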

Additional observations from a re-analysis of the deposited data

Results flagged for a closer look

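In 5 cases a gene differed in opposite directions in 2 classes. In 1 class both mice of the later or hyperoxia group lay above both mice of the comparison group, and in the other class both lay below. Both classes come from the same mice, and mice of different groups are not paired. The difference between the classes was not tested in any of the 5 cases. Mt1 from P7 to P21 was higher in airway smooth muscle (log2 8.93) and lower in pericytes (log2 -2.37), a difference of 11.29. In hyperoxia, Mt1 was higher in airway smooth muscle (log2 2.30) and lower in vascular smooth muscle (log2 -5.96), a difference of 8.27. From P1 to P7, Nqo1 was higher in airway smooth muscle (log2 2.29) and lower in vascular smooth muscle (log2 -4.70), a difference of 6.98, while Hmox1 was higher in alveolar fibroblasts (log2 0.58) and lower in vascular smooth muscle (log2 -5.24), a difference of 5.83. Gclc from P1 to P7 was higher in myofibroblasts (log2 1.73) and lower in pericytes (log2 -10.42), a difference of 12.15. Its pericytes held 287 reads at P1 and 1 read at P7, so the size of that fitted change depends on the prior count. Only Mt1 in airway smooth muscle from P7 to P21 was past the threshold.

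Subtypes of the hyperoxia mice that entered no comparison also held signal above the highest level of any library at P7 in normal air. In the 55 Male hyperoxic fibroblasts, Slc7a11 was at 8.10 CPM against a highest level of 1.30 CPM, and Aldh3a1 at 0.647 CPM against 0.0346 CPM. Proliferating fibroblasts of the male hyperoxia mouse had 3.48 CPM of Slc7a11 and 0.147 CPM of Aldh3a1, and those of the female 79.9 CPM of Srxn1 against 49.7 CPM. Proliferating myofibroblasts of the female hyperoxia mouse had 4.19 CPM of Aldh3a1. Each of these is 1 library of 1 mouse.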

How the results depend on the processing

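With 2 mice per group, calls can rest on 1 mouse, and shares of cells with a read move with depth for genes of few reads. The number of the 10 genes' tests past the threshold was 0 in hyperoxia with edgeR, 4 with DESeq2, and 0 to 1 when a mouse was left out (Srxn1 in myofibroblasts without the male P1 mouse). From E18.5 to P1 it was 3, with 5 by DESeq2, 0 in a fit of only the 4 mice of the contrast, and 0 to 4 when a mouse was left out. From P1 to P7 it was 0, with 4 by DESeq2 and 0 to 1 when a mouse was left out (Nqo1 in myofibroblasts without the female and Hmox1 in myofibroblasts without the male P1 mouse). From P7 to P21 it was 3, with 12 by DESeq2, 5 without the filter on low counts, 6 with only the 4 mice of the contrast, 6 with limma on mean CPM per cell, and 2 to 6 when a mouse was left out. The interaction gave 0 and DESeq2 1 (Hmox1), with 0 in each fit that left out a mouse. DESeq2 also called more of all genes, for example 1350 against 0 in hyperoxia. Its share of the tests of all genes was 1.92% in hyperoxia, 3.11% from P1 to P7, 6.34% from P7 to P21 and 3.57% for the interaction. For DESeq2 from E18.5 to P1 and for the other alternative settings, the share of all genes is not given here. Those counts are therefore not set against all genes. Mt1 in airway smooth muscle from P7 to P21 was called under each setting run. Mt1 and Mt2 in adventitial fibroblasts, not past the threshold with edgeR and all mice, were past it by DESeq2, by limma, without the filter, without either P1 mouse and without the female E18.5 mouse, and Mt2 also without the male E18.5 mouse and with only the 4 mice of the contrast. Srxn1 in hyperoxia in airway smooth muscle ranged from -0.51 to 1.77 on the log2 scale when a mouse was left out, with the reversal in the fit that lacked the normal air P7 female. The mean share of P21 airway smooth muscle cells with an Mt1 read was 69.8% and, after thinning, 68.9%. The cause of these shifts was not tested.

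The replicate letters F and M give the sex, and no label ties mice of different groups to 1 litter. The 4 normal air males shared a main run, as did the E18.5 and P1 females, so the term for sex was the block and also carries the run in these mice. With no replicate block the counts were 0 in hyperoxia, 3 from E18.5 to P1, 0 from P1 to P7 and 2 from P7 to P21, where Mt2 in airway smooth muscle was lost.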
